A study of Rattus norvegicus with 70 samples.

Results

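Klhdc9 is the rat gene for kelch domain containing 9, and the quantity followed here is the methylated-DNA signal of the region around its transcript start in rat liver. The region was the single row with that gene symbol among 17174 regions measured at each of 2 times. It overlapped 0 other regions, and 0 peaks of the deposited peak list carried its symbol or lay inside it. It was selected on its deposited signal, which was higher after thioacetamide than in the promoted control at both times. That difference is therefore described below without a test.

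Kelch repeats fold into a propeller-shaped domain that binds other proteins, and many kelch proteins present substrates to ubiquitin ligases. The role of Klhdc9 itself is little described. Cytosine methylation at CpG dinucleotides marks most of the mammalian genome, is usually sparse where CpGs are dense at a transcript start, and there tends to accompany low transcription. Thioacetamide is a liver toxicant and rat liver carcinogen that CYP2E1 and flavin monooxygenases convert to reactive S-oxides.

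The livers came from outbred Crj:CD(SD)IGS rats in a 2-stage scheme of liver carcinogenesis, in which an initiating treatment was followed by a promoter. Methylated fragments of genomic DNA were captured with a methyl-binding protein and sequenced on a SOLiD 4 instrument. There were 70 libraries, made up of 7 treatments at 2 times with 5 rat livers in each group. The assay counts enriched DNA fragments and no RNA, so the expression of liver markers could not be used to check the tissue.

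The thioacetamide rats were initiated with 45 mg/kg for 2 weeks. Other rats were initiated with diethylnitrosamine (DEN, a DNA-alkylating carcinogen) at 3 mg/kg for 2 weeks or at 30 mg/kg, which was stopped after 1 week. Methapyrilene, an antihistamine that is a rat liver carcinogen, was given at 100 mg/kg, and the analgesic acetaminophen at 1000 mg/kg. All initiated rats then had 2 weeks without treatment, followed by the liver tumour promoter phenobarbital at 500 ppm in the drinking water. The promoted control received 0.5% methylcellulose, the vehicle, in place of an initiator and then phenobarbital, and the water control received the vehicle and no phenobarbital. Liver was sampled at a partial hepatectomy, done on all animals when promotion had run for 1 week, and at terminal euthanasia, when it had run for 6 weeks.

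The Klhdc9 region lies on chromosome 13 from 87265020 to 87270645 in the coordinates of the deposited tables, on the minus strand, for transcript NM_001108350. The sources used here do not name the genome build of these coordinates. The region spans 5625 bp, of which 4500 bp lie upstream of the transcript start at 87266145 and the rest runs into the gene. Exons and introns within it were not analysed here. To show what kind of sequence sits just before this start, the 250 bases upstream of it and of the nearest neighbouring gene, Pvrl4 (Nectin4 in RefSeq, a cell adhesion molecule), are printed 5′ to 3′ from RefSeq on build GRCr8, with each CpG in capitals. They are chr13:86325654-86325903 on the minus strand for Klhdc9 and chr13:86335378-86335627 on the plus strand for Pvrl4.
Klhdc9: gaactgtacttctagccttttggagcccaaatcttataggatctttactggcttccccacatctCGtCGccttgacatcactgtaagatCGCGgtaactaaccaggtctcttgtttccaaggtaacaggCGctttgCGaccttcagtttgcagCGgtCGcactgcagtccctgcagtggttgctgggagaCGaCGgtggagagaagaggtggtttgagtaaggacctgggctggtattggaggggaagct
Pvrl4: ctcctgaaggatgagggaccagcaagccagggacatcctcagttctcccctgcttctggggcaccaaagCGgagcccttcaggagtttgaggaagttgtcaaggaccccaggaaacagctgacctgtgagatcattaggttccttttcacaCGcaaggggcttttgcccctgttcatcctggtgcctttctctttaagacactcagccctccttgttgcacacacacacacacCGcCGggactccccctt

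The motif counted was CG, which reads the same on both strands. The Klhdc9 window held 10 of them and the Pvrl4 window 4. Of 33469 windows of the same length and position in the RefSeq table, 92.2% held at least 1 CG, the median was 5, and 35.9% held at least as many as Klhdc9. Klhdc9 was therefore neither CpG-poor nor among the densest starts. These windows cover a small share of the region, and the signal has no finer resolution than the region.

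The signal is the authors' scaled number of reads per region and library. In every library the deposited values were whole multiples of one step, which gave back 31 to 208 reads in the Klhdc9 region. Region reads per library numbered 0.933 to 1.80 M, and between 0.611% and 5.39% of regions had no read. All 10 libraries numbered 61 to 70 in the titles carry the exact scaling totals of libraries 1 to 10, in the same order. They nevertheless held more region reads (median 1.58 M against 1.34 M in the others). Totals that match exactly and in order were shared and not counted for each library separately. The level of the deposited signal in these 10, replicate 5 of thioacetamide at both times among them, is therefore unreliable. Values over each library's own region reads are given beside it. In 9 libraries, under 1% of regions had no read (at most 0.932%), whereas all others had at least 1.60%. These are called low-zero libraries here. They include promoted-control library 5 and thioacetamide library 4 at terminal euthanasia, and neither of those groups has one at partial hepatectomy. At terminal euthanasia each of the 5 low-zero libraries had the lowest Klhdc9 signal of its group, and at partial hepatectomy none of 4 did. Per M region reads of the library, 1 of those 5 was the lowest of its group.

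Klhdc9 signal was highest in the thioacetamide group at both times and lowest in the water control at partial hepatectomy and in the acetaminophen group at terminal euthanasia. At partial hepatectomy the 5 thioacetamide libraries, in replicate order, measured 94.9, 149, 163, 140 and 161, with a mean of 142 ± 27.7 (SD, n = 5). The 5 promoted-control libraries measured 47.4, 94.5, 73.1, 97.1 and 53.6, with a mean of 73.1 ± 22.8 (SD, n = 5). Thioacetamide libraries 2 to 5 lay above every promoted-control library, and library 1 lay among the upper promoted-control values, so the groups overlapped. A full separation of these groups was found in 0.873% of regions.

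At terminal euthanasia the thioacetamide libraries measured 146, 153, 131, 97.0 and 219, with a mean of 149 ± 44.4 (SD, n = 5). The promoted-control libraries measured 89.2, 88.0, 112, 77.2 and 58.4, with a mean of 84.9 ± 19.4 (SD, n = 5). Again 4 thioacetamide libraries exceeded all 5 controls and 1 did not. The stricter case of all 5 above was found in 0.181% of regions, and the share with 4 above was not counted. The lower one was low-zero library 4, and the high value of 219 stood apart from the other thioacetamide libraries. That value belongs to library 5, whose scaling total is one of those repeated from another library.

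**Figure D1:**
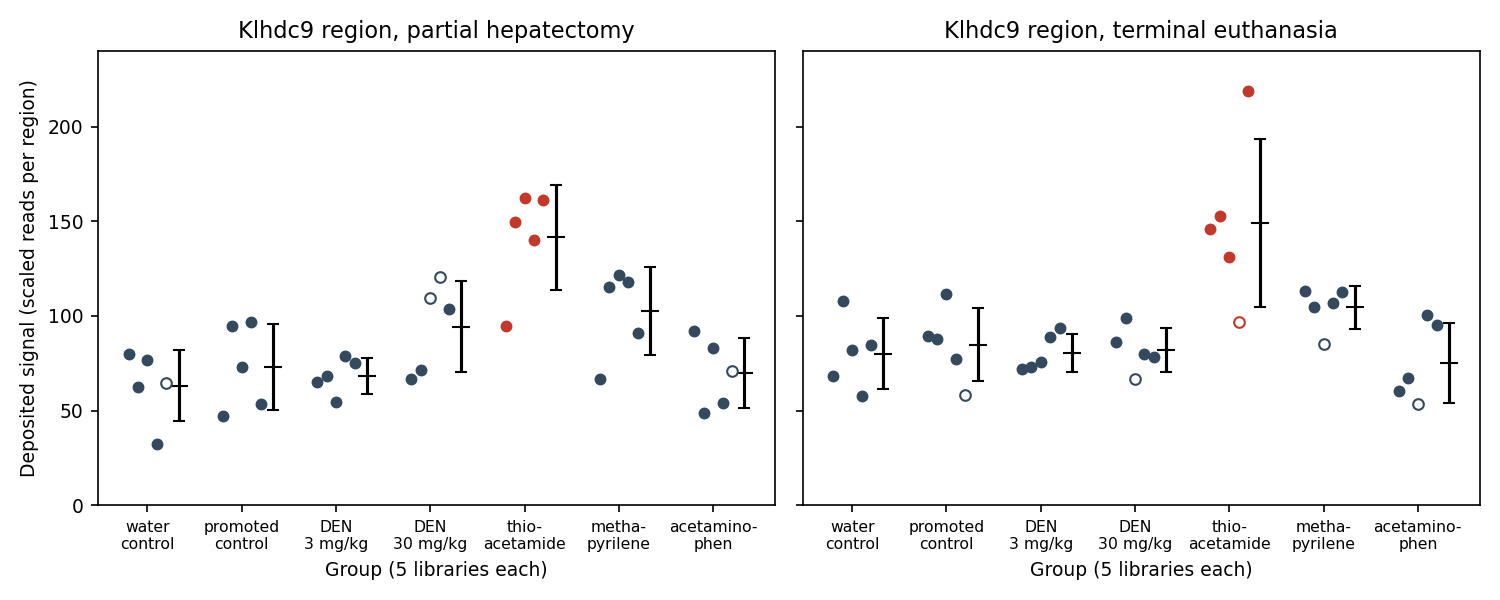
Deposited signal of the Klhdc9 region (vertical axis, scaled reads) in each of 7 groups at partial hepatectomy (left) and terminal euthanasia (right). Each point is 1 library in replicate order, open points are low-zero libraries, red points are thioacetamide, and the bar at the right of each group is the mean ± SD of 5. The 4 highest libraries at each time are thioacetamide libraries, between 140 and 163 on the left and between 131 and 219 on the right. The share of regions with such an order was not counted.

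The thioacetamide mean was 194% of the promoted control at partial hepatectomy and 176% at terminal euthanasia. On the scale of log2(signal + 1) the difference was 0.98 (SE 0.22) and 0.79 (SE 0.20). Without thioacetamide library 5, which carries a repeated scaling total at both times, it was 0.92 and 0.64. Differences above that of Klhdc9 were found in 1.24% of 15809 regions at the first time and in 1.19% of 16008 at the second. The median difference over all regions was 0.08 and 0.04. Of 15740 regions tested at both times, 21 had differences at least as large as those of Klhdc9 at both, Klhdc9 included. Among those 21, Klhdc9 had the highest mean signal over all 70 libraries (90.7, against a median of 60.9 over regions tested at both times). The 21 are set by the differences of Klhdc9 itself, and that mean includes the thioacetamide libraries of the choice. This rank is therefore a description only. In the limma fit 0 regions passed an adjusted p of 0.05 for this contrast at either time (0% called). At an unadjusted p under 0.05 there were 702 and 330 regions, fewer than that threshold passes without any difference.

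**Figure D2:**
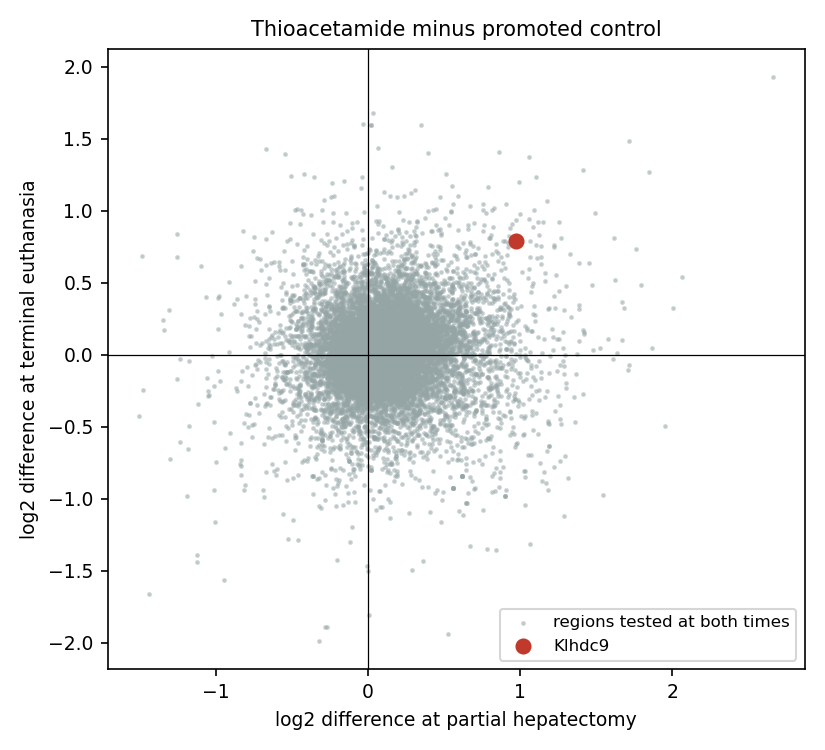
log2 difference of signal + 1 between thioacetamide and the promoted control at partial hepatectomy (horizontal axis) and terminal euthanasia (vertical axis) for 15740 regions, 1 grey point each. Klhdc9, in red at 0.98 and 0.79, lies toward the upper right edge of the cloud, where it was chosen to lie.

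Set against the other treatments, the thioacetamide libraries were above all 5 libraries of the water control, of DEN 3 mg/kg and of acetaminophen at partial hepatectomy. Such separation from the water control was found in 1.21% of regions, from DEN 3 mg/kg in 0.595% and from acetaminophen in 0.62%. They overlapped DEN 30 mg/kg and methapyrilene there. At terminal euthanasia they were above all libraries of DEN 3 mg/kg (0.487% of regions) and overlapped each of the other groups through library 4. On the deposited scale the 4 highest of the 35 libraries were thioacetamide libraries at both times. The share of regions with such an order was not counted. All these counts rest on the libraries by which the region was chosen.

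When reads were divided by each library's own sum over all regions, the order at terminal euthanasia changed for library 4. The thioacetamide libraries then measured 113, 125, 93.5, 85.2 and 127 reads per M region reads, and the next library of any group was promoted-control library 3 at 84.5. All 5 were above all 30 other libraries on this scale, as in 1 of 16008 regions (0.00625%), Klhdc9 itself, which was chosen for high thioacetamide values. The gap of library 4 to that control was far smaller than the counting error of either. Library 5, which stood apart on the deposited scale, lay beside library 2 on this one. At partial hepatectomy 3 thioacetamide libraries were above all others on this scale (all 5 were in 0% of regions). Library 5, with a repeated scaling total, lay at 93.7, below DEN 30 mg/kg libraries 3 and 4 at 95.7 and 98.9. The 4 highest libraries there were thus not all thioacetamide on this scale. Library 1 at 65.3 lay between promoted-control values of 30.5 and 72.7. It also lay below acetaminophen library 1 at 72.3, so the separation from acetaminophen was lost.

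On the deposited scale the spread of Klhdc9 between livers was wider than counting error in most groups. The thioacetamide libraries held 140 reads on average at partial hepatectomy, for which counting alone gives a coefficient of variation of 8.45%, and the observed one was 19.5%. In the promoted control 31.1% was observed. At terminal euthanasia the observed values were 29.8% for thioacetamide and 22.8% for the promoted control. By contrast DEN 3 mg/kg varied by 12.3% there, close to the 11.3% of counting. These figures cover counting error only, since the reads carry no molecular identifiers.

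Within its own library the Klhdc9 region sat above the middle of all regions in most groups. Its percentile by signal had a median of 63.1 in the promoted control and 81.5 in the thioacetamide group at partial hepatectomy. The medians were 67.3 and 84.4 at terminal euthanasia. Over all 70 libraries the percentile ran from 38.98 in a water control to 88.7 in a thioacetamide library.

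The titles number the libraries, and the numbers fall into 4 runs that do not cover all treatments. Within numbers 1 to 20 the log2 difference between thioacetamide and the promoted control was 0.82 at partial hepatectomy and 0.75 at terminal euthanasia (2 libraries against 2). Within numbers 41 to 60 it was 1.48 and 0.94 (2 against 1). Numbers 21 to 40 hold no thioacetamide library and numbers 61 to 70 no promoted control. In the last run the thioacetamide library measured 161 and 219, above the highest of the 4 others at 104 and 113, all of them scaled with repeated totals. These libraries include those by which the region was chosen, so the within-run values are a description.

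Methapyrilene had the second highest mean at both times. Its 5 libraries measured 66.7, 116, 122, 118 and 91.1 at partial hepatectomy, a mean of 103 ± 23.4 (SD, n = 5). At terminal euthanasia they measured 113, 105, 85.2, 107 and 113, a mean of 105 ± 11.4 (SD, n = 5). The log2 difference from the promoted control was 0.51 (SE 0.22) and 0.32 (SE 0.20), and the groups overlapped at both times. Larger differences were found in 6.09% and 14.6% of regions.

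DEN 30 mg/kg ranked 3 of 7 by mean at partial hepatectomy and 4 of 7 at terminal euthanasia. At partial hepatectomy its libraries measured 66.7, 71.5, 109, 120 and 104 (mean 94.3 ± 23.9, SD, n = 5). The 2 highest of them are low-zero libraries, and the 104 of library 5 rests on a repeated scaling total. Per M region reads the 5 libraries measured 50.1, 50.9, 95.7, 98.9 and 63.9. At terminal euthanasia the mean was 82.0 ± 11.8 (SD, n = 5), with libraries from 66.8 to 98.9. Its log2 difference from the promoted control was 0.38 (SE 0.22) and then -0.03 (SE 0.20).

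The remaining treatments lay within 1 SE of the promoted control. DEN 3 mg/kg averaged 68.5 ± 9.39 and 80.6 ± 9.92 (SD, n = 5) at the 2 times, with a log2 difference of -0.05 at both. Acetaminophen averaged 69.7 ± 18.5 and 75.3 ± 21.2 (SD, n = 5), with differences of -0.05 and -0.18. The water control averaged 63.3 ± 18.7 and 80.2 ± 18.9 (SD, n = 5), with differences of -0.21 and -0.08. The SE was 0.22 at the first time and 0.20 at the second. All contrasts with the promoted control use the same 5 control libraries as the thioacetamide contrast at that time. In the authors' deposited table the p-values of the 5 other groups against the promoted control ran from 0.0778 (methapyrilene, partial hepatectomy) to 0.802 (acetaminophen, partial hepatectomy).

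**Figure D3:**
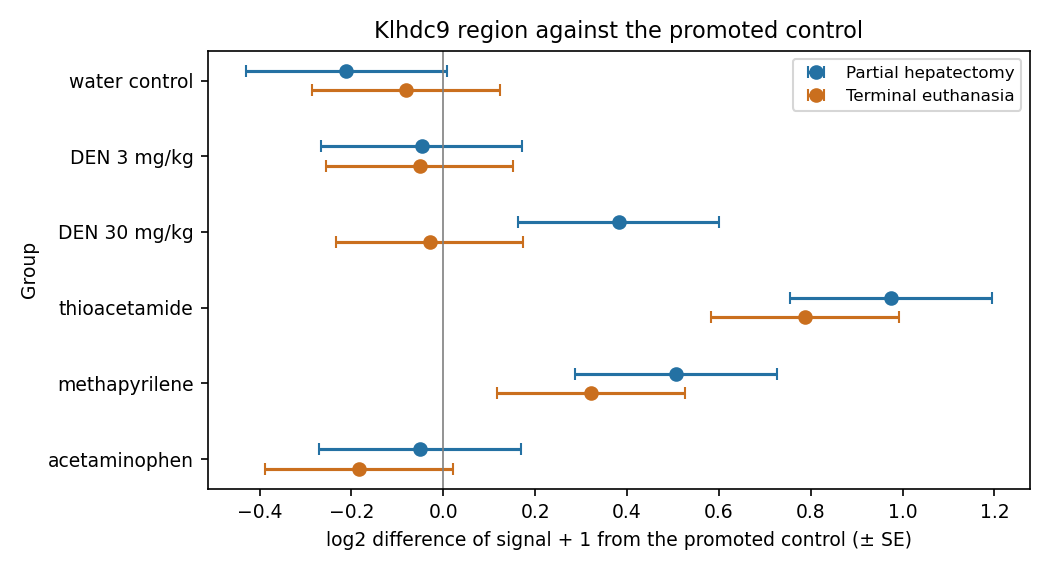
log2 difference of Klhdc9 signal + 1 from the promoted control (horizontal axis, bars are ± SE from the fit) for the 6 other groups at partial hepatectomy (blue) and terminal euthanasia (orange). Thioacetamide is at 0.98 and 0.79, methapyrilene at 0.51 and 0.32, and the 2 DEN 30 mg/kg points lie apart at 0.38 and -0.03.

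Tests were confined to the 5 groups other than thioacetamide and the promoted control. These are the water control, both DEN doses, methapyrilene and acetaminophen. The region was chosen for higher values after thioacetamide, and the groups it was set against are not stated. The levels of these 5 groups may therefore have had a part in the choice. An F test over these groups in limma gave F = 3.99 for Klhdc9 at partial hepatectomy, with an adjusted p of 0.99 over all regions by Benjamini-Hochberg. Before adjustment the value was 0.0061. At terminal euthanasia F was 1.76, with an adjusted p of 1.00 in limma, and 0.15 before adjustment. The F test called 0 regions at each time (0%). At an unadjusted p under 0.05 there were 597 and 511 regions, fewer than that threshold passes without any difference. The spread among these 5 groups at partial hepatectomy, with methapyrilene and DEN 30 mg/kg at the top, therefore did not pass.

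The DEN dose comparison gave a log2 difference of 0.43 (SE 0.22, 95% interval -0.01 to 0.87) between 30 and 3 mg/kg at partial hepatectomy, with an adjusted p of 0.93 in limma. Without the low-zero libraries, which include DEN 30 mg/kg libraries 3 and 4, the difference was 0.22. Library 5 of each dose, with a repeated scaling total, was kept there. With all libraries scaled by their own region sum the difference was 0.47. At terminal euthanasia the difference was 0.02 (SE 0.20, 95% interval -0.39 to 0.43), with an adjusted p of 1.00. This contrast called 0 regions at either time (0%), with 825 and 482 at an unadjusted p under 0.05. The first count is near the number that this threshold passes without any difference, and the second is below it.

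Between the times, the mean log2 change of Klhdc9 over the same 5 treatments was 0.12 (SE 0.096, 95% interval -0.07 to 0.31), with an adjusted p of 0.80 in limma. Over all regions 9 of 16385 were called for this contrast (0.0549%), all of them higher at terminal euthanasia, and 5 to 11 with 1 library left out. The Klhdc9 change was 0.22 without the low-zero libraries (adjusted p of 0.46), 0.02 after quantile normalization and 0.04 after scaling by the library's own region sum. The thioacetamide group changed by 0.05, with 3 of 5 same-numbered libraries higher at the later time, and the promoted control by 0.24, also with 3 of 5. The largest single shift was in the water control at 0.37, with 4 of 5 higher. DEN 30 mg/kg was the only treatment with a lower mean at the later time, by -0.17, with 2 of 5 libraries higher.

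The labels do not say whether libraries with the same number at the 2 times come from the same rat. Over 25 same-numbered pairs of the 5 tested treatments, deviations of Klhdc9 from the group mean at the 2 times had a Pearson r of -0.11 (permutation p = 0.66) and a Spearman rho of -0.33 (permutation p = 0.17), 2-sided, with adjustment not applied to this single relation. Without the 2 pairs farthest from the median r was -0.38 (permutation p = 0.13), and without the low-zero libraries it was 0.07. No relation between the times within a number was therefore detected.

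The nearest regions on the chromosome had smaller differences after thioacetamide than Klhdc9. The start of Pvrl4 lies 9830 bp from that of Klhdc9, and the gap between both regions is 830 bp. Pvrl4 averaged 176 ± 41.7 after thioacetamide and 179 ± 44.4 in the promoted-control livers at partial hepatectomy, and 154 ± 25.5 and 154 ± 30.0 at terminal euthanasia (SD, n = 5 each). Its log2 differences were -0.03 and 0.00. Arhgap30, a GTPase-activating protein, followed at 28929 bp with -0.02 and 0.08, and Usf1, a transcription factor that binds E-boxes, at 70560 bp with -0.05 and -0.09.

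On the other side the start of Pfdn2, a prefoldin chaperone subunit, lies at -20032 bp, and its differences were 0.20 and 0.23. Nit1, an amidase whose start lies beside that of Pfdn2, has 2 regions, of which only 1 was compared. That region overlaps the Pfdn2 region and had 0.62 at partial hepatectomy and 0.28 at terminal euthanasia. In Nit1 the means were 44.8 ± 15.2 after thioacetamide and 32.5 ± 16.4 in the promoted control at the first time (SD, n = 5 each). The groups were thus less than 1 SD apart. Dedd, a death-effector-domain protein, had -0.02 and -0.08, Ufc1, the conjugating enzyme of the ubiquitin-like modifier UFM1, 0.20 and 0.13, and Usp21, a deubiquitinase, 0.07 and 0.05.

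Farther out, F11r, a tight-junction adhesion molecule, had 0.54 and 0.01 at a low level of 10.9 ± 2.87 in the promoted control at partial hepatectomy (SD, n = 5). Itln1, an intelectin, had -0.21 and -0.12. Each of the 10 neighbours, with a single region compared per gene, had a smaller difference than Klhdc9 at both times. Klhdc9 was chosen for high values after thioacetamide, and only 1.24% and 1.19% of all regions had a larger difference. Smaller differences in 10 other regions were therefore likely in advance and show nothing particular to this locus. None of the 10 was called by limma (0% of regions called).

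**Figure D4:**
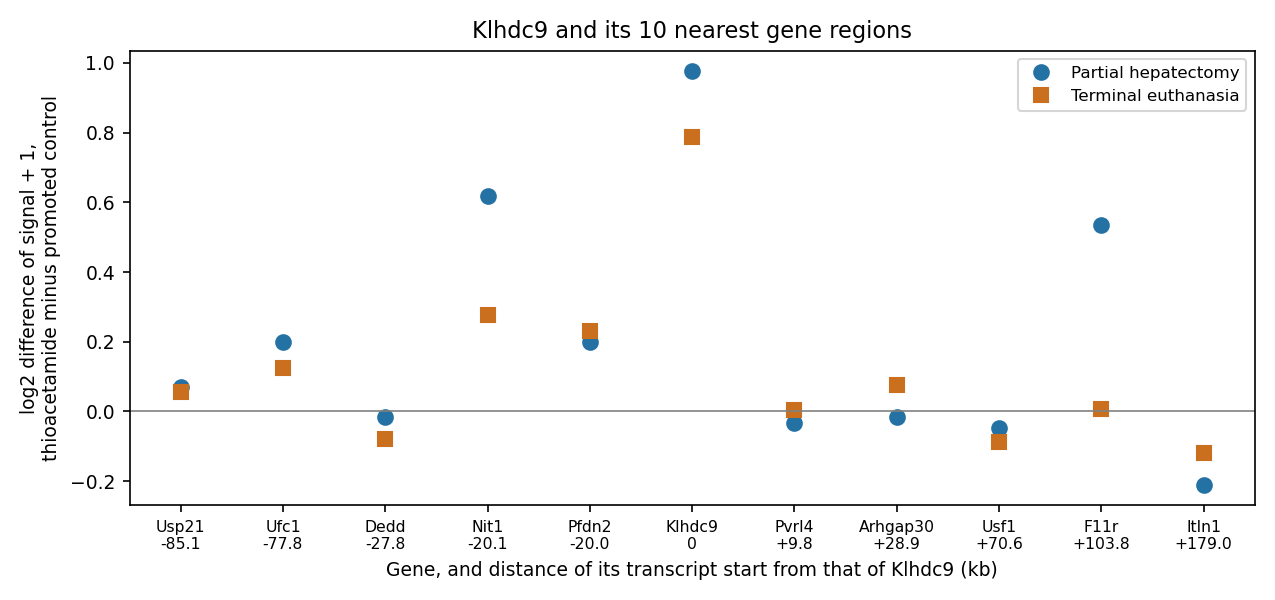
log2 difference of signal + 1 between thioacetamide and the promoted control (vertical axis) for Klhdc9 and the 5 nearest genes on each side, placed in order along the chromosome with the distance of each start from that of Klhdc9 in kb. Klhdc9, chosen for high values after thioacetamide, stands at 0.98 and 0.79. Pvrl4 next to it is at -0.03 and 0.00, and the next highest gene, Nit1, is at 0.62 and 0.28.

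The deposited peak list compares DEN 30 mg/kg with phenobarbital alone and holds no thioacetamide comparison. The nearest peak to the Klhdc9 region ran from 87219661 to 87219814, 45206 bp from its edge, between genes. It was called higher in DEN 30 mg/kg at the time point the list names 5w, with an enrichment factor of 4.73 by the authors' caller. On the other side the nearest was at F11r, 119957 bp away. Peaks at 5w lay in 974 regions (5.67%) and peaks at 11w in 255 (1.48%), so a region without a peak, as here, is the usual case.

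Other kelch genes were compared as a family, as the genes whose symbols begin with Klhdc, Klhl or Kbtbd, together with Keap1, Klhdc9 left out. Of 41, 40 were tested. Of these, 30 lay above 0 and 10 below in thioacetamide minus promoted control at partial hepatectomy, with a median of 0.11 beside 0.08 over all genes. At terminal euthanasia 27 lay above and 13 below, with a median of 0.09 beside 0.04. None was called in limma at either time (0% of all regions called). The Klhdc9 difference lay above that of each of these genes at partial hepatectomy, and at terminal euthanasia Klhl9 lay above it. Klhdc9 was chosen for high values after thioacetamide, and 1.24% and 1.19% of all regions had a larger difference at the 2 times. Its place above nearly all of 40 genes was therefore likely in advance.

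The kelch genes with the largest differences in size at partial hepatectomy were Klhl28 at -1.23, Klhdc1 at 0.62, Klhl4 at -0.60 and Klhl21, an adaptor of a cullin ubiquitin ligase, at 0.50. At terminal euthanasia they were Klhl9, another such adaptor, at 0.87, Klhl4 at -0.84, Klhl28 at -0.60 and Klhl22 at 0.57. Klhl28, Klhl4 and Klhl9 have few reads. At partial hepatectomy Klhl28 averaged 2.99 ± 4.54 after thioacetamide and 6.01 ± 3.49 in the promoted control (SD, n = 5 each). Klhl4 averaged 6.00 ± 3.37 and 9.07 ± 3.86 there. At terminal euthanasia Klhl9 averaged 16.02 ± 7.79 and 8.23 ± 4.56. Only Klhl4 and Klhl28 were among the 4 at both times. Keap1, the adaptor that holds the oxidative-stress factor NRF2 in check, had 0.15 and -0.18.

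Enzymes that activate thioacetamide were also measured around their starts. Cyp2e1 had differences of -0.12 and 0.26 at the 2 times, and Fmo1 had 0.39 and 0.40. Neither was called in limma. Fmo1 averaged 29.5 ± 7.81 after thioacetamide and 22.1 ± 5.66 in the promoted control at the first time, and 41.1 ± 7.33 and 30.9 ± 5.93 at the second (SD, n = 5 each).

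A change in methylation within cells and a change in the mix of cells cannot be told apart in whole-liver DNA. The regions of cell-type marker genes were therefore read beside Klhdc9, and 0 of them were called in limma. Hepatocyte markers had a median difference of 0.13 at partial hepatectomy (6 of 7 above 0) and 0.10 at terminal euthanasia (5 of 7). Their summed signal ran from 391 to 557 after thioacetamide and from 367 to 461 in the promoted control at the first time, and from 350 to 557 and 317 to 447 at the second. The thioacetamide and control ranges overlapped at both times.

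Biliary or progenitor markers had medians of 0.03 (4 of 5 above 0) and 0.06 (3 of 5). Stellate or fibroblast markers had -0.08 (3 of 7 above 0) and -0.15 (1 of 7). Macrophage markers had 0.11 (5 of 6 above 0) and 0.18 (6 of 6). Endothelial markers had -0.12 and -0.07 (1 of 4 above 0 at each time), and lymphocyte markers had 0.03 and 0.13 (4 of 6 at each time). These medians stand beside 0.08 and 0.04 over all genes, and single members went both ways within lists. Pdgfrb, a growth factor receptor of stellate cells named after its values were seen, had 0.69 at partial hepatectomy and -0.17 at terminal euthanasia. At the first time it averaged 120 ± 17.9 after thioacetamide and 74.6 ± 15.8 in the promoted control (SD, n = 5 each). Its difference there was the largest of its list, in which 4 of 7 members lay below 0. The part of cell mix in the Klhdc9 difference was not tested.

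Genes whose signal ran most like that of Klhdc9 were taken by Pearson r over the 70 libraries after quantile normalization. They were Map7d1, Mosc1 and Rabl2b, each with r = 0.41, Mir3588 with 0.40 and Gpx4, a peroxidase that reduces lipid peroxides, with 0.39. The 99th percentile over 15739 regions was 0.28. Over 14 group means the highest were Atg9b, an autophagy membrane protein, with r = 0.88, RGD1309821, Cenpt, a centromere protein, and Lyrm2, each with 0.86, and Sip1 with 0.84, beside a 99th percentile of 0.66. The points share libraries and the authors' scaling, and no gene was in both lists, so these values are a description only. Gpx4 averaged 116 ± 42.5 after thioacetamide and 68.4 ± 32.6 in the promoted-control livers at partial hepatectomy, and 112 ± 33.7 and 84.4 ± 28.4 at terminal euthanasia (SD, n = 5 each). The SDs of its groups overlapped at both times.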

How the data were processed

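Liver DNA from 14 groups of 5 liver samples was measured by sequencing of methyl-binding-protein-enriched fragments. Whether a rat gave a sample at both times is not stated in the labels. The deposited region tables give 1 signal value per library for regions of 5625 bp around transcript starts, scaled by the authors, with 0.01 where no read fell. Every value was a whole multiple of its library's step within 0.01, and reads are value divided by step, so counting error is known. Depth per library is given with the results. The sources used here name no aligner and no genome build. Per the file headers, the tables also hold the authors' p-value from a t-test of each group against the promoted control. The deposited peak list gives the authors' enrichment factor, a ratio, for DEN 30 mg/kg against phenobarbital.

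Groups came from the titles and labels. Signal was taken as log2(value + 1) and regions with a value of 10 or more in at least 5 libraries were tested. limma 3.58.1 in R 4.3.3 fitted all 7 groups of a time with a variance trend, with Benjamini-Hochberg adjustment at 0.05, and was tested on simulated data. Correlations used 100000 resamples in SciPy 1.17.1. Alternatives were the pseudocount (10), no filter, quantile normalization, scaling by the library's own region sum, the number runs as a covariate, the replicate number as a block, only the compared groups, no low-zero libraries, and leaving out each library. Tests on recovered whole reads were not run.

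The region, its neighbours, the kelch, bioactivation and cell-type lists and the tests were chosen with earlier results of these data known. The genes named were Klhdc9, the 5 nearest on each side, the 5 most like it by each measure, the 4 kelch genes with the largest absolute difference at each time, Cyp2e1 and Fmo1; a further gene of the bioactivation list is not reported here. Keap1, a kelch list member, was named for its known role after its values were seen. Pdgfrb, a stellate or fibroblast list member, was also named after its values were seen. RefSeq matched 10 of these 11 regions to an upstream sequence. Same-numbered libraries of a treatment at both times had correlations of their deviations above 0.1 in 13 of 35 pairs. Libraries of a treatment with other numbers had them in 21 of 140 pairs. The first count is the larger share but short of every pair, and the labels tie no numbers to animals. The fits reported therefore have no block, and fits with one are given as alternatives.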

Additional observations from a re-analysis of the deposited data

How the results depend on the processing

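The Klhdc9 log2 difference between thioacetamide and the promoted control kept its direction under each of the 8 other settings run and each library left out. The region was chosen for high thioacetamide values, so this is a description and no support for the difference. Its direction could hardly turn with 1 library left out, since 4 thioacetamide libraries lay above every promoted-control library at each time. It ran from 0.85 to 0.98 at partial hepatectomy and from 0.73 to 0.81 at terminal euthanasia over the settings, and from 0.84 to 1.11 and from 0.64 to 0.93 with 1 library left out. Its tests on the other groups stayed above an adjusted p of 0.05 throughout in limma.

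The count of regions called by the F test at partial hepatectomy, 0 as reported, was 2 after quantile normalization and 1 after scaling by the library's own region sum. With 1 library left out it ran from 0 to 1, as did the F test at terminal euthanasia and, at partial hepatectomy, the thioacetamide and the DEN dose contrasts. The count called between the times ran from 5 to 11 with 1 library left out, and from 6 to 12 over the other settings. The Klhdc9 DEN dose difference at terminal euthanasia ran from -0.048 to 0.092. It was below 0 without DEN 3 mg/kg library 1 (-0.02), DEN 3 mg/kg library 2 (-0.01) or DEN 30 mg/kg library 2 (-0.048). The correlation of same-numbered deviations was 0.074 without the low-zero libraries and ran from -0.45 to -0.03 with 1 pair left out. The cause was not tested.

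With the replicate number as a block, the thioacetamide differences were 0.98 and 0.79 and the F tests called 0 regions at both times. The condition-and-number block called 10 regions between the times, against 9 without it, and left Klhdc9 at an adjusted p of 0.71 in limma. Of 35 libraries, 23 matched their own number best at the other time among 5 candidates each, a hint from the data that numbers may be shared; the labels do not say so. edgeR and DESeq2 on recovered whole reads were planned and were not run. With 5 livers a group and 31 to 208 reads in the region, the 95% intervals of the DEN dose difference still spanned -0.01 to 0.87 and -0.39 to 0.43 on the log2 scale.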
